A study of Mus musculus with 10 samples.

Results

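The mitochondrial genome of the mouse heart was read out here through 10 of its messenger RNAs, mt-Nd1, mt-Nd2, mt-Nd4, mt-Nd5, mt-Nd6, mt-Co1, mt-Co2, mt-Co3, mt-Atp6 and mt-Cytb. They were taken by name from 11777 genes in a deposited table of transcript expression, after transcript identifiers had been matched to the GENCODE vM21 annotation, and each of the 10 genes had 1 listed transcript. The tissue was myocardium, from mice of the C57BL/6 strain. There were 5 libraries with the label NPRA-/- (217, 227, 231, 240 and 241), from mice in which natriuretic peptide receptor A (NPRA) is deleted in the myocardium, and 5 with the label NPRA+/+ (228, 230, 242, 243 and 255), from littermates that kept the receptor. The sources used here do not give how the deletion was driven, the age or sex of the mice, which mice came from the same litter, or the days of preparation. Per the labels' protocols, libraries were strand-specific and made from RNA captured on oligo(dT), which selects poly(A) tails.

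Mitochondrial DNA is transcribed from both strands as long precursors that run through many genes, and the messenger RNAs are released by excision of the transfer RNAs that lie between them. The encoded proteins form the core of respiratory complexes I (the mt-Nd genes), III (mt-Cytb) and IV (the mt-Co genes) and of ATP synthase (mt-Atp6), and each complex is completed by subunits imported from the cytosol, while complex II is wholly nuclear-encoded. In the heart, where contraction depends on oxidative phosphorylation, these transcripts are among the most abundant of the cell. All but mt-Nd6 lie on one strand; mt-Nd6 is the only protein-coding gene on the other.

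Transcripts that end inside a codon are shown, because the poly(A) tail on which the libraries were selected also completes their coding sequence. In GENCODE vM21 (GRCm38), 7 of the 10 transcripts end in a complete stop codon and 3 end on a single T. The last bases of these 3 are written 5′ to 3′, with the incomplete stop codon in capitals.

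mt-Nd4: ccaaaactaattacaggcctgacaataT

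mt-Co3: tacgtctccatttattgatgaggatctT

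mt-Cytb: gaagacaaaatactaaaattatatccaT

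The plus-strand gene mt-Nd5 (bases 11742 to 13565 of the mitochondrial chromosome) and the minus-strand gene mt-Nd6 (bases 13552 to 14070) meet tail to tail and overlap by 14 bases. The final bases of both are shown because reads from this overlap can be told apart only by strand, and the sources used here do not say whether strand was used in quantification. Capitals mark the overlap, each written on its own coding strand, 5′ to 3′.

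mt-Nd5: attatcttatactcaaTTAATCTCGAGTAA

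mt-Nd6: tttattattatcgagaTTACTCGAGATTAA

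The strand also shows in the composition of the messages. mt-Nd6 holds 28.1% G and 5.97% C, while mt-Nd5 holds 9.98% G and 27.1% C and mt-Cytb 12.2% G and 26.9% C.

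Expression values were taken as FPKM, fragments per kilobase of transcript scaled to the size of the library, which can be compared between genes because they are divided by length. The deposited file does not name its unit, and the sequencing depth is unknown, so errors here are the spread from library to library. The values of a library summed to 430059 to 453122 FPKM over all genes. The tissue label was checked first: the 10 cardiomyocyte markers examined were above 0 in every library and made up 6.84% of the sum, with Myh6, the main adult cardiac myosin heavy chain, at 7854 ± 371 FPKM in NPRA-/- labelled libraries and 7781 ± 523 FPKM in NPRA+/+ labelled libraries (mean ± SD, n = 5 each). Npr1, which encodes NPRA, was at 4.64 ± 0.492 FPKM in NPRA-/- labelled libraries and 4.68 ± 0.301 FPKM in NPRA+/+ labelled libraries, so its messenger RNA did not separate the genotype labels, which could not be checked further here.

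The 10 mitochondrial transcripts together took up 23.5% ± 1.02 of the summed expression in NPRA-/- labelled libraries and 23.0% ± 0.597 in NPRA+/+ labelled libraries (SD, n = 5 each). The single shares were 23.0% in library 217, 22.1% in 227, 24.1% in 231, 24.0% in 240 and 24.6% in 241, all labelled NPRA-/-. In NPRA+/+ labelled libraries they were 23.1% in 228, 23.0% in 230, 23.5% in 242, 23.6% in 243 and 22.1% in 255. Each group had a library at 22.1%, 227 and 255, and the groups overlapped. Libraries 231, 240 and 241, labelled NPRA-/-, were above every library labelled NPRA+/+, while 217 and 227 were not. Because a share of the sum rises when other genes fall, the transcripts were also set against the summed expression of genes outside the mitochondrial genome, which was 315434 ± 6587 FPKM in NPRA-/- labelled libraries and 315193 ± 2954 FPKM in NPRA+/+ labelled libraries. For every 100 FPKM of that sum the 10 transcripts held 32.9 ± 1.99 FPKM in NPRA-/- labelled libraries and 31.9 ± 1.09 FPKM in NPRA+/+ labelled libraries. In tissue RNA, fewer cells of a type and less RNA per cell cannot be told apart.

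The 10 transcripts spanned a wide range of levels in much the same order in every library. mt-Co1, the catalytic subunit of cytochrome c oxidase, was the most abundant transcript of all genes in each of the 10 libraries, at 20302 ± 998 FPKM in NPRA-/- labelled libraries and 19783 ± 607 FPKM in NPRA+/+ labelled libraries (SD, n = 5 each). mt-Cytb, the cytochrome b of complex III, ranked second in all 10 libraries, at 17534 ± 1049 FPKM in NPRA-/- labelled libraries and 16949 ± 469 FPKM in NPRA+/+ labelled libraries. mt-Nd1, a membrane subunit of complex I, followed with a mean over the 10 libraries of 12801 FPKM. The next 4 lay close together: mt-Nd5 averaged 10232 FPKM, mt-Nd2 10089 FPKM, mt-Nd4 9606 FPKM, and mt-Atp6, the proton channel subunit of ATP synthase, 9465 FPKM. In that group mt-Nd5 exceeded mt-Nd2 in 8 of 10 libraries and mt-Nd4 exceeded mt-Atp6 in 6 of 10, so these neighbours were not ordered beyond their spread, while mt-Nd2 exceeded mt-Nd4 in 10 of 10. The oxidase subunits mt-Co2 (6810 FPKM) and mt-Co3 (5696 FPKM) came after them in every library, although the 3 oxidase subunits are assembled into 1 enzyme. Myh6 and Tnnt2, at 7817 and 7739 FPKM over the 10 libraries, were the only genes outside the mitochondrial genome whose mean exceeded that of mt-Co2.

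**Figure D1:**
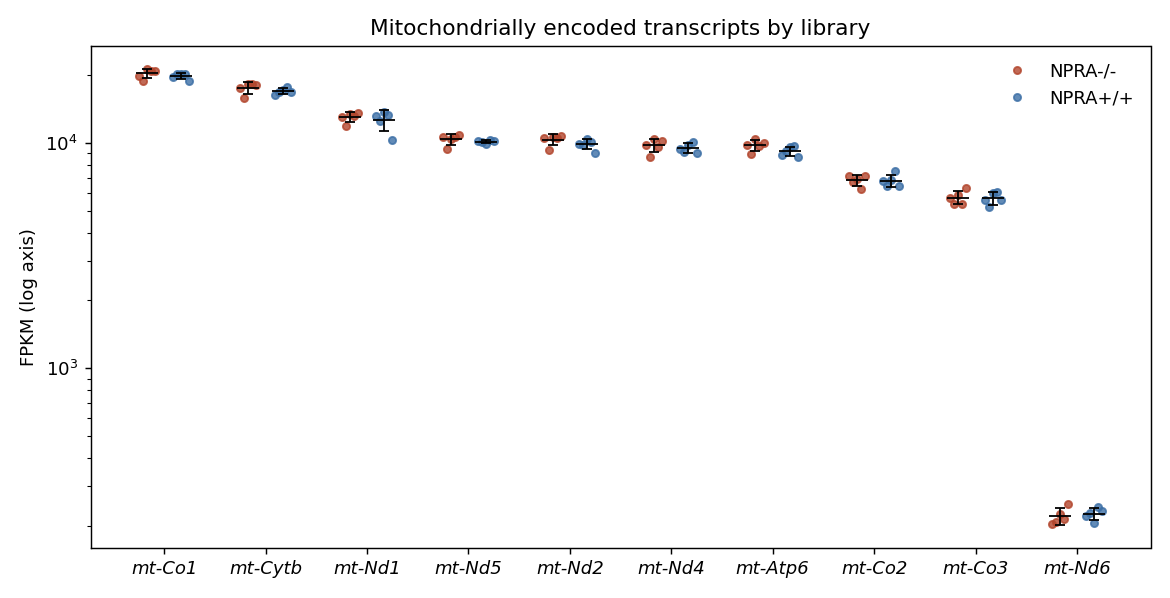
FPKM of the 10 mitochondrial transcripts (log axis) in each library, ordered by their mean, with NPRA-/- libraries left of NPRA+/+ libraries for each gene; black bars give the mean and SD of 5 libraries. The groups overlap for every transcript, and mt-Nd6 lies 25.5 times below mt-Co3, the next in order.

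mt-Nd6, the complex I subunit transcribed from the other strand, stood far below the rest. It was at 203, 209, 227, 215 and 250 FPKM in libraries 217, 227, 231, 240 and 241, labelled NPRA-/-, and at 222, 228, 207, 242 and 233 FPKM in libraries 228, 230, 242, 243 and 255, labelled NPRA+/+. The highest and the lowest library were both labelled NPRA-/-, and the groups overlapped throughout. Its level was 2.13% ± 0.159 of that of its overlapping neighbour mt-Nd5 in NPRA-/- labelled libraries and 2.24% ± 0.107 in NPRA+/+ labelled libraries (SD, n = 5 each). The mean over 10 libraries placed it at rank 227 of all genes, among nuclear-encoded subunits: the median subunit of complex I imported from the cytosol was at 244 ± 14.2 FPKM in NPRA-/- labelled libraries and 248 ± 10.2 FPKM in NPRA+/+ labelled libraries. In human cells ND6 messenger RNA is known to lack the poly(A) tail that the other mitochondrial messengers carry. The part of poly(A) selection in the values here was not tested.

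Nuclear copies of mitochondrial DNA can take reads from some of these genes, so shared sequence was measured next. Every stretch of 31 bases in each transcript was looked up, on both strands, in all other transcripts of GENCODE vM21. Genome sequence outside annotated transcripts was not searched. Of mt-Co2 100% of the 31-base words were found elsewhere, of mt-Co3 99.9% and of mt-Atp6 99.5%, against 63.9% of mt-Co1 and 62.8% of mt-Nd4. The share was 16.8% for mt-Nd5, 13.5% for mt-Nd2, 7.36% for mt-Nd6, 6.55% for mt-Cytb and 0% for mt-Nd1. The copies of mt-Co2, mt-Co3 and mt-Atp6, with parts of mt-Nd4 and mt-Co1, lie in 1 run of 7 pseudogenes on chromosome 1 (bases 24611535 to 24616197, GRCm38, minus strand); Gm28661 holds 99.5% of the words of mt-Co2, Gm28437 99.9% of those of mt-Co3 and Gm10925 99.5% of those of mt-Atp6. None of the 22 transcripts that share words has a value used here. The values of mt-Co2, mt-Co3 and mt-Atp6 are therefore uncertain wherever reads matching several places were split or dropped, and how such reads were handled is not stated in those sources. mt-Nd1 and mt-Cytb, near the top of the order, and mt-Nd6, at its foot, shared the fewest words.

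**Figure D2:**
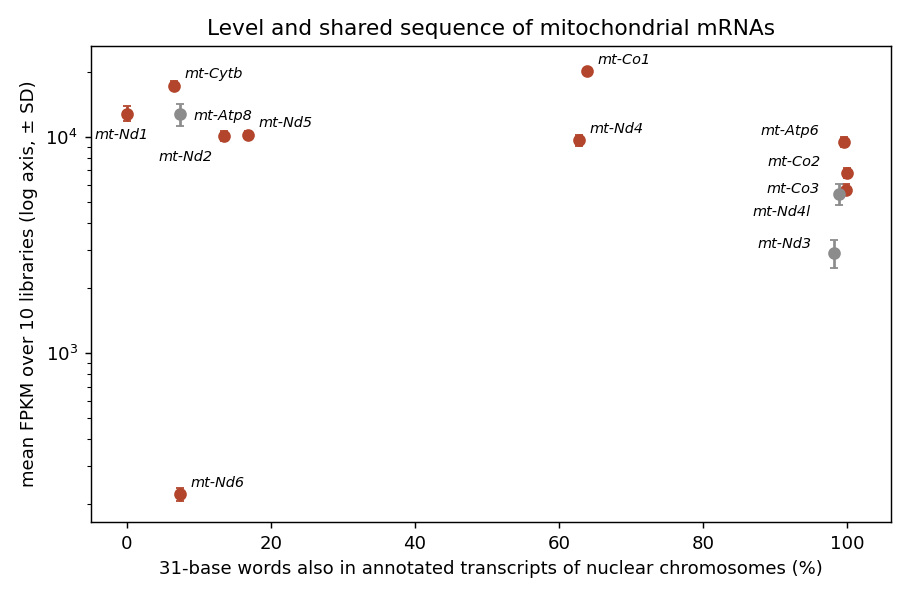
Mean FPKM over 10 libraries (log axis, bars are SD) against the percentage of 31-base words that also occur in other annotated transcripts, for the 10 transcripts described (red) and the remaining 3 mitochondrial protein-coding genes (grey). mt-Co2 and mt-Co3, the lowest of the described transcripts after mt-Nd6, share 100% and 99.9% of their words, mt-Atp6 shares 99.5%, and mt-Nd6 shares 7.36%. Genome sequence outside annotated transcripts was not searched, so the 7.47% of mt-Atp8 may be too low.

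The remaining 3 mitochondrial protein-coding genes include the partners of mt-Atp6 and mt-Nd4. mt-Atp8 and mt-Atp6 overlap by 43 bases and mt-Nd4l and mt-Nd4 by 7, and each pair is known to be carried on a shared messenger RNA. The FPKM of mt-Atp8 was 1.33 ± 0.197 times that of mt-Atp6 in NPRA-/- labelled libraries and 1.36 ± 0.0938 times in NPRA+/+ labelled libraries (SD, n = 5 each), and that of mt-Nd4l was 0.557 ± 0.0447 times that of mt-Nd4 in NPRA-/- labelled libraries and 0.573 ± 0.0625 times in NPRA+/+ labelled libraries. mt-Atp8 is 204 bases long with 7.47% of words shared with other annotated transcripts, and mt-Nd4l is 297 bases long with 98.9% shared. The bases of chromosome 1 between Gm10925 and Gm28661, the copies of mt-Atp6 and mt-Co2, were not searched. mt-Atp8 starts between mt-Co2 and mt-Atp6, so its 7.47% may be too low. mt-Nd3, at 348 bases and 98.1% shared, was the lowest of the plus-strand genes, at 2899 ± 456 FPKM in NPRA-/- labelled libraries and 2895 ± 460 FPKM in NPRA+/+ labelled libraries. Both genes of a shared messenger RNA thus had unequal values in every library.

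The genotypes were then compared gene by gene with limma on log2(FPKM + 1), fitted to all 10764 genes with a mean of at least 1 FPKM in a group and adjusted over all of them by the Benjamini-Hochberg method. None of the 10 transcripts passed the adjusted threshold of 0.05, where 0.00929% of all genes did, and none was below an unadjusted p of 0.05, where 1.38% of all genes were called higher and 4.13% lower. The groups overlapped in all 10, while they did not in 1.08% of all genes (0.242% higher and 0.836% lower). The log2 differences, NPRA-/- labelled libraries minus NPRA+/+ labelled libraries, ran from -0.038 for mt-Nd6 to 0.085 for mt-Atp6 with a median of 0.038, while the median of all genes tested was -0.029. Of the 10, 9 lay above 0 (only mt-Co3 and mt-Atp6 under quantile normalization), against 39.4% of all genes, but the values of these transcripts moved together across libraries and the 9 are not independent of each other. Quantile normalization sets values by rank, which fixed mt-Co1 and mt-Cytb at 0, since each kept its rank in every library.

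**Figure D3:**
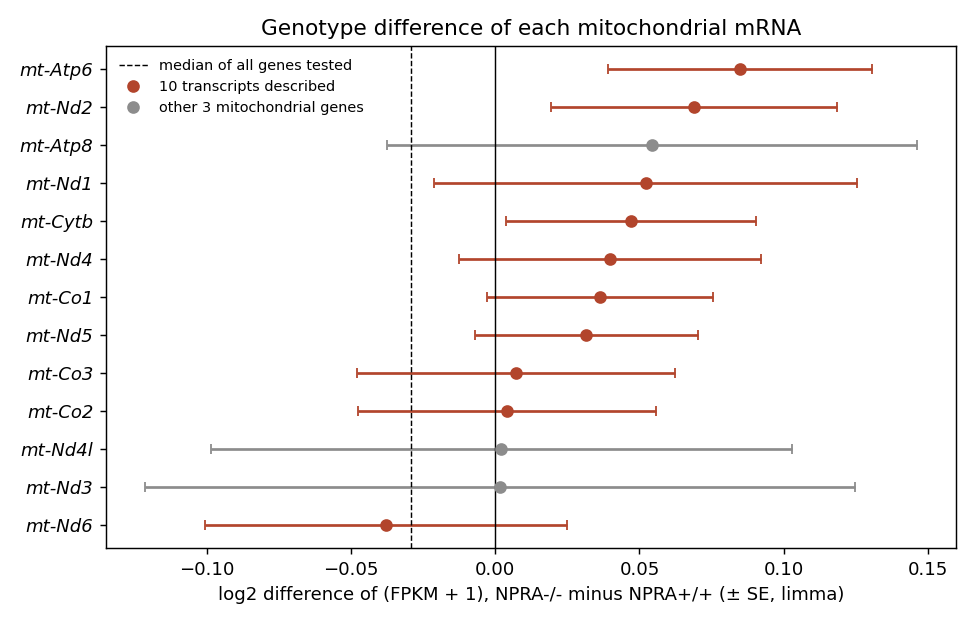
Log2 difference of (FPKM + 1), NPRA-/- minus NPRA+/+, for each mitochondrial protein-coding gene, with its limma standard error; the dashed line is the median of all genes tested (-0.029). The 10 transcripts described lie between -0.038 (mt-Nd6) and 0.085 (mt-Atp6), and the adjusted p of each is 0.906 or higher.

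mt-Atp6 had the largest difference of the 10 in this fit. It was at 9827, 8904, 10358, 9681 and 9958 FPKM in libraries 217, 227, 231, 240 and 241, labelled NPRA-/-, and at 8843, 9239, 9536, 9634 and 8674 FPKM in libraries 228, 230, 242, 243 and 255, labelled NPRA+/+. In 4 of 5 NPRA-/- labelled libraries it was above every library labelled NPRA+/+, and 227 was the exception. The log2 difference was 0.085 (SE 0.046, limma adjusted p = 0.906). Without library 227 it was 0.12, with an unadjusted limma p of 0.0151 and an adjusted p of 0.868. mt-Cytb, mt-Nd2 and mt-Nd5 likewise had unadjusted limma p-values of 0.0165, 0.0232 and 0.0305 without it, each with an adjusted p of 0.868. In that setting 154 of 10770 genes were higher at an unadjusted limma p under 0.05. Library 227 was the lowest NPRA-/- labelled library for all of these transcripts, so leaving it out could only raise their differences.

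mt-Nd2, a membrane subunit of complex I, was at 10551, 9267, 10577, 10545 and 10721 FPKM in libraries 217, 227, 231, 240 and 241, labelled NPRA-/-, and at 9895, 9807, 10389, 10109 and 9032 FPKM in libraries 228, 230, 242, 243 and 255, labelled NPRA+/+. Here too 4 of 5 NPRA-/- labelled libraries were above every library labelled NPRA+/+, and 227 lay below 4 of them. The log2 difference was 0.069 (SE 0.050, limma adjusted p = 0.914). Without library 227 it was 0.11, and without library 255 it was 0.038.

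mt-Nd1 varied most of the 10 transcripts relative to its mean, with library 255 far below the rest. It was at 13059, 11830, 13459, 13114 and 13577 FPKM in libraries 217, 227, 231, 240 and 241, labelled NPRA-/-, and at 13202, 12502, 13704, 13254 and 10306 FPKM in libraries 228, 230, 242, 243 and 255, labelled NPRA+/+. Library 255 deviated from the mean of the 10 libraries by -19.5%, and 242 of the same group was the highest of all. The log2 difference was 0.052 (SE 0.073, limma adjusted p = 0.943), and without library 255 it changed direction, to -0.018.

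The oxidase subunits mt-Co2 and mt-Co3, which carry the copper centre and a membrane core of the enzyme, differed least. mt-Co2 was at 7161, 6691, 6902, 6214 and 7125 FPKM in libraries 217, 227, 231, 240 and 241, labelled NPRA-/-, and at 6773, 6457, 6863, 7470 and 6440 FPKM in libraries 228, 230, 242, 243 and 255, labelled NPRA+/+. mt-Co3 was at 5680, 5380, 5851, 5367 and 6276 FPKM in the same order of NPRA-/- labelled libraries, and at 5589, 5193, 6021, 6044 and 5563 FPKM in the same order of NPRA+/+ labelled libraries. Library 240 was the lowest of the first 5 for both genes and 243 the highest of the other 5. The groups overlapped for both genes. Their log2 differences were 0.0041 (SE 0.052) and 0.0072 (SE 0.055), and both changed direction when every library was rescaled to the same sum.

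The 4 transcripts not yet given by library had differences close to the size of their standard errors, and leaving out 1 library moved each by over 1.5 times. mt-Co1 was at 19872, 18743, 21143, 20840 and 20910 FPKM in libraries 217, 227, 231, 240 and 241, labelled NPRA-/-, and at 19558, 20164, 20196, 20187 and 18810 FPKM in libraries 228, 230, 242, 243 and 255, labelled NPRA+/+. mt-Cytb was at 17548, 15725, 18271, 18171 and 17953 FPKM in the NPRA-/- labelled libraries, in that order, and at 16366, 16802, 17095, 17645 and 16836 FPKM in the NPRA+/+ labelled libraries. For both genes, 227 was the lowest of all 10 libraries and 231 the highest. mt-Nd4, a membrane-arm subunit of complex I, was at 9767, 8693, 10398, 9623 and 10237 FPKM in the NPRA-/- labelled libraries and at 9400, 9065, 9807, 10076 and 8996 FPKM in the NPRA+/+ labelled libraries. mt-Nd5 was at 10576, 9388, 10365, 10641 and 10776 FPKM in the NPRA-/- labelled libraries and at 10165, 10071, 9919, 10245 and 10170 FPKM in the NPRA+/+ labelled libraries, where its SD was 125 FPKM, against 557 FPKM in the NPRA-/- labelled libraries. In both genes 227 was again the lowest of all. The log2 differences were 0.036 (SE 0.039) for mt-Co1, 0.047 (SE 0.043) for mt-Cytb, 0.040 (SE 0.052) for mt-Nd4 and 0.032 (SE 0.039) for mt-Nd5, with limma adjusted p-values of 0.928, 0.920, 0.934 and 0.928. mt-Nd5, the proton-pumping subunit at the far end of the membrane arm, varied least over the 10 libraries, with a coefficient of variation of 3.91%. mt-Nd1 varied most, with 8.08%, and its library 255 lay furthest from the mean, at -19.5%.

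In several libraries most of the transcripts deviated in the same direction. In library 227, labelled NPRA-/-, all 10 were below their mean over the 10 libraries, with a median deviation of -7.15%, and in libraries 231 and 241 of the same group all 10 were above it, with medians of 4.98% and 5.69%. Among NPRA+/+ labelled libraries, all 10 were above the mean in 243, with a median of 2.94%, and 9 of 10 were below it in 228 and in 255. In 255 the exception was mt-Nd6, which deviated by 4.37% while mt-Nd1 deviated by -19.5% and mt-Nd2 by -10.5%. In 217 the reverse held: mt-Nd6 deviated by -9.10% and 7 of the 10 transcripts were above their mean. The high and low libraries were thus found in both groups.

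**Figure D4:**
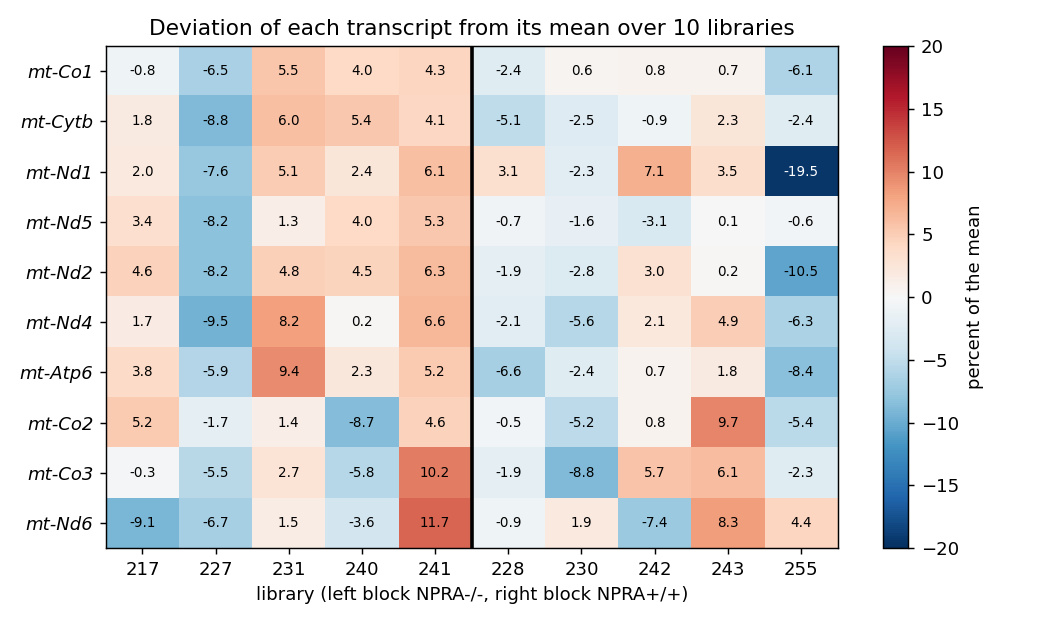
Deviation of each transcript from its own mean over the 10 libraries, in percent (red above, blue below), with NPRA-/- libraries in the left block and NPRA+/+ libraries in the right. Library 227 is below the mean for all 10 transcripts, 231, 241 and 243 are above it for all 10, and mt-Nd1 in library 255 is lowest, at -19.5%.

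Ratios between transcripts were compared because they do not depend on the scaling of a library. Over the 45 pairs, the SD of the log2 ratio across the 10 libraries ran from 0.035 for mt-Co1 over mt-Cytb to 0.16 for mt-Nd1 over mt-Nd6, with a median of 0.085. The pairs that held their ratio most closely after mt-Co1 and mt-Cytb were mt-Nd5 with mt-Cytb (SD 0.038) and mt-Nd2 with mt-Atp6 (SD 0.039). The 9 pairs with mt-Nd6 had a median SD of 0.11 and a lowest of 0.094, against a median of 0.070 in the 36 pairs without it. The 9 pairs with mt-Nd1 also had a median of 0.11, but these SDs include library 255, where mt-Nd1 deviated from its mean by -19.5%. The SDs of the pairs without library 255 were not computed. These SDs are a description, and the pairs share transcripts and libraries.

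Of 8 chosen ratios none passed the threshold of 0.05 between the genotypes in the two-sided exact permutation test over the 252 ways to split the libraries 5 against 5, whose smallest possible p is 0.00794. After adjustment over the 8 ratios, a lone ratio could not have passed even at that smallest p. The smallest p belonged to mt-Co3 over mt-Atp6, genes that lie next to each other on the plus strand. This ratio was 0.578, 0.604, 0.565, 0.554 and 0.630 in libraries 217, 227, 231, 240 and 241, labelled NPRA-/-, and 0.632, 0.562, 0.631, 0.627 and 0.641 in libraries 228, 230, 242, 243 and 255, labelled NPRA+/+. All but 230 of the NPRA+/+ labelled libraries were above 4 of the 5 NPRA-/- labelled libraries, and 241 and 230 lay among the values of the opposite group. The log2 difference was -0.078 (exact permutation p = 0.135, adjusted over the 8 ratios 0.656). Without library 230 it was -0.11, with an exact permutation p of 0.0317 (adjusted 0.254). Both of these genes share nearly all their sequence with the copy on chromosome 1.

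mt-Nd6 over mt-Cytb was 1.26% ± 0.0970 in NPRA-/- labelled libraries and 1.34% ± 0.0710 in NPRA+/+ labelled libraries, with a log2 difference of -0.085 (exact permutation p = 0.206, adjusted 0.656, n = 5 each). mt-Nd6 over mt-Nd5 differed by -0.070 on the log2 scale (exact permutation p = 0.246, adjusted 0.656). mt-Co1 over mt-Nd1, which sets complex IV against complex I, was 1.56 ± 0.0292 in NPRA-/- labelled libraries and 1.58 ± 0.146 in NPRA+/+ labelled libraries, where library 255 stood at 1.83 and the other 4 at 1.47 to 1.61. mt-Nd2 over mt-Nd1 was 0.794 ± 0.0111 in NPRA-/- labelled libraries and 0.786 ± 0.0520 in NPRA+/+ labelled libraries, with 255 again the highest at 0.876. Without 255 its log2 difference was 0.057, against 0.017 with it, and its exact permutation p 0.0159 (adjusted 0.127). mt-Cytb over mt-Nd5 was the steadiest of the 8, between 1.61 and 1.76 in all 10 libraries.

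**Figure D5:**
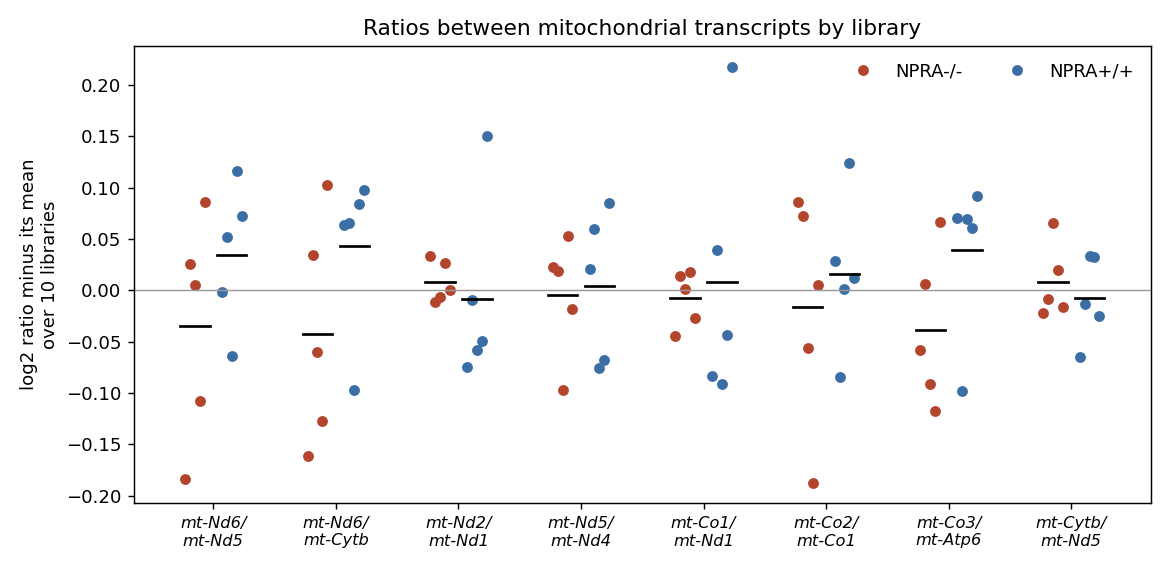
Log2 ratio of each of the 8 pairs minus its mean over the 10 libraries, with one point per library, NPRA-/- left of NPRA+/+, and black lines for the group means. The groups overlap in all 8 ratios, and library 255 is the top NPRA+/+ point for mt-Nd2 over mt-Nd1 and for mt-Co1 over mt-Nd1.

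Set by complex, the 5 complex I transcripts held 42.1% ± 0.351 of the summed level of the 10 in NPRA-/- labelled libraries and 42.0% ± 0.799 in NPRA+/+ labelled libraries. The 3 complex IV transcripts held 31.7% ± 0.547 in NPRA-/- labelled libraries and 32.1% ± 0.217 in NPRA+/+ labelled libraries, mt-Cytb held 16.9% ± 0.326 in NPRA-/- labelled libraries and 16.9% ± 0.528 in NPRA+/+ labelled libraries, and mt-Atp6 held 9.39% ± 0.155 in NPRA-/- labelled libraries and 9.13% ± 0.168 in NPRA+/+ labelled libraries (SD, n = 5 each). The composition of the summed level of these 10 transcripts, without mt-Atp8, mt-Nd4l and mt-Nd3, thus moved by less than 0.5 percentage points between the groups for each complex.

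The partner subunits encoded in the nucleus were far less abundant. The median of the 5 complex I transcripts described was 42.3 ± 3.22 times the median of 36 nuclear-encoded complex I subunits in NPRA-/- labelled libraries and 39.4 ± 1.86 times in NPRA+/+ labelled libraries. For complex III, mt-Cytb was 45.04 ± 2.32 times the median of 9 nuclear subunits in NPRA-/- labelled libraries and 44.8 ± 2.88 times in NPRA+/+ labelled libraries. For ATP synthase, mt-Atp6 was 16.1 ± 0.689 times the median of 17 nuclear subunits in NPRA-/- labelled libraries and 15.9 ± 1.20 times in NPRA+/+ labelled libraries. For complex IV the ratio was lowest, at 10.9 ± 0.439 in NPRA-/- labelled libraries and 11.5 ± 0.592 in NPRA+/+ labelled libraries, with Cox6a2, the heart and muscle form of a regulatory subunit, the most abundant of 15 nuclear subunits at 1977 ± 76.3 FPKM in NPRA-/- labelled libraries and 1919 ± 87.4 FPKM in NPRA+/+ labelled libraries. The complex IV ratio uses mt-Co2 and the ATP synthase ratio uses mt-Atp6, whose values are uncertain for the sequence they share.

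None of the 81 nuclear-encoded subunits passed the limma test after adjustment; at an unadjusted p under 0.05, 2 of complex IV and 1 of ATP synthase were higher and none was lower, against 1.38% higher and 4.13% lower of all genes. The share of all genes above 0 was 39.4%. Of 36 in complex I, 26 lay above 0 and 10 below (median log2 difference 0.021), of 9 in complex III 7 and 2 (0.011), of 15 in complex IV 10 and 5 (0.043), of 17 in ATP synthase 11 and 6 (0.024), and of the 4 of complex II, which has no mitochondrially encoded subunit, 1 and 3 (-0.0087). The smallest p-values belonged to Atp5a1, the alpha subunit of ATP synthase, at 658 ± 33.5 FPKM in NPRA-/- labelled libraries and 575 ± 24.4 FPKM in NPRA+/+ labelled libraries (limma log2 difference 0.19, SE 0.046, adjusted p = 0.833), and to Cox6b2, a cytochrome c oxidase subunit known chiefly from testis, at 5.81 ± 1.12 FPKM in NPRA-/- labelled libraries and 3.15 ± 1.00 FPKM in NPRA+/+ labelled libraries (log2 difference 0.74, SE 0.18, limma adjusted p = 0.833). Among the genes with the smallest p in their lists were also Cox5b (log2 difference 0.10), Uqcrc1 (0.077), Ndufs3 (0.10), Sdha (0.052) and Ndufa12 (-0.36), each with an adjusted p of at least 0.893. The summed level of the 81 genes was 35415 ± 1428 FPKM in NPRA-/- labelled libraries and 34915 ± 1133 FPKM in NPRA+/+ labelled libraries. Library 227, low for all 10 mitochondrial transcripts, was at 34816 FPKM, inside the range of 33564 to 37512 FPKM of all libraries.

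The genes that make and handle mitochondrial RNA were also compared, and none passed the limma test after adjustment. At an unadjusted p under 0.05, 1 gene of RNA processing was higher and 1 lower, and 1 gene each of mitochondrial DNA replication and of translation was higher, against the same 1.38% higher and 4.13% lower of all genes. The counts above 0 that follow stand beside 39.4% of all genes above 0. Of 11 tested genes of mitochondrial transcription, 7 lay above 0 and 4 below (median log2 difference 0.012). Tfam, which packages mitochondrial DNA and starts its transcription, was at 13.2 ± 1.01 FPKM in NPRA-/- labelled libraries and 11.99 ± 0.818 FPKM in NPRA+/+ labelled libraries (limma adjusted p = 0.906), and Polrmt, the mitochondrial RNA polymerase, at 3.56 ± 1.13 FPKM in NPRA-/- labelled libraries and 4.38 ± 0.542 FPKM in NPRA+/+ labelled libraries (adjusted p = 0.908, limma). In libraries 217 and 227 Polrmt was at 2.30 and 2.33 FPKM, and in the other 3 NPRA-/- labelled libraries it was at 4.29 to 4.46 FPKM, and 227 but not 217 was low for all 10 mitochondrial transcripts. Mterf4, which takes part in assembly of the mitochondrial ribosome, was at 7.95 ± 0.519 FPKM in NPRA-/- labelled libraries and 8.91 ± 0.855 FPKM in NPRA+/+ labelled libraries.

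Of 24 genes of RNA processing, 14 lay above 0 and 10 below (median 0.0094), led by Fastkd5, which acts on precursors without a transfer RNA between messages, at 3.36 ± 0.385 FPKM in NPRA-/- labelled libraries and 4.14 ± 0.176 FPKM in NPRA+/+ labelled libraries (limma log2 difference -0.24, adjusted p = 0.833). Ptcd3, a protein of the mitochondrial ribosome, was at 40.1 ± 4.88 FPKM in NPRA-/- labelled libraries and 33.5 ± 4.42 FPKM in NPRA+/+ labelled libraries, and Tbrg4, of the FASTK family, at 10.8 ± 3.18 FPKM in NPRA-/- labelled libraries and 7.38 ± 3.22 FPKM in NPRA+/+ labelled libraries. Of 9 genes of mitochondrial DNA replication and nucleotide supply, 5 lay above 0 and 4 below (median 0.035), with the thymidine kinase gene Tk2 (log2 difference 0.44), Lig3 (-0.17) and the helicase gene Twnk (0.093) nearest to the threshold. Tk2 was low, at 2.66 ± 0.848 FPKM in NPRA-/- labelled libraries and 1.70 ± 0.683 FPKM in NPRA+/+ labelled libraries. Of 11 translation factors, 4 lay above 0 and 7 below (median -0.013), with Mtfmt, which formylates the initiator transfer RNA (log2 difference 0.67, SE 0.28), Taco1, a translational activator of mt-Co1 (-0.11), and Mtif2 (-0.066). Mtfmt was low, at 1.75 ± 1.22 FPKM in NPRA-/- labelled libraries and 0.615 ± 0.267 FPKM in NPRA+/+ labelled libraries. Its highest values were 3.05 FPKM in 217 and 3.04 FPKM in 231. Taco1 was at 22.0 ± 1.25 FPKM in NPRA-/- labelled libraries and 23.9 ± 1.91 FPKM in NPRA+/+ labelled libraries.

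The nuclear genes whose level followed the mitochondrial transcripts most closely were sought among 4357 with a mean of at least 10 FPKM, by Pearson's r between log2(FPKM + 1) and the mean log2(FPKM + 1) of the 10 transcripts over the 10 libraries. They were Dlst, a subunit of the oxoglutarate dehydrogenase of the citric acid cycle (r = 0.90, Spearman's rho 0.89), the translation factor gene Eif1 (0.86), Mb, which encodes the oxygen store myoglobin (0.85), Kalrn (0.84), Sel1l (0.79) and Car8 (0.79). Mb was at 4645 ± 161 FPKM in NPRA-/- labelled libraries and 4527 ± 265 FPKM in NPRA+/+ labelled libraries. Dlst ranged more widely, with 9.53 FPKM in library 227 and 69.4 FPKM in library 241, the libraries with the lowest and the highest summed level of the mitochondrial transcripts. The values of all genes in a library share its scaling, and the 6 genes were the top of a ranking, so these r are a description.

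Markers of other cells were read beside these values. The 8 fibroblast markers were all lower in NPRA-/- labelled libraries on average (summed level 352 to 440 FPKM, against 380 to 517 FPKM in NPRA+/+ labelled libraries), as were the 7 endothelial (213 to 268 FPKM, against 257 to 280 FPKM), the 6 smooth muscle and pericyte (305 to 394 FPKM, against 305 to 530 FPKM) and the 7 macrophage markers (101 to 123 FPKM, against 123 to 142 FPKM); none passed after adjustment over all genes by limma, 4, 2, 1 and 3 of them were lower at an unadjusted p under 0.05, and none was at 0 in any library. Of all 10764 genes, 4.13% were lower at that p and 6524 lay below 0. Of the 10 cardiomyocyte markers 9 lay above 0, with a median log2 difference of 0.043, beside 9 of the 10 mitochondrial transcripts with a median of 0.038. All 5 erythroid markers lay above 0 too (median 0.15), while all 4 listed atrial and all 4 listed fat markers lay below 0. Of the listed skeletal muscle markers 1 lay above 0 and 1 below. The summed level of the 10 cardiomyocyte markers was 28258 to 32783 FPKM in NPRA-/- labelled libraries and 28335 to 31002 FPKM in NPRA+/+ labelled libraries. Ucp1, the uncoupling protein of brown fat, which is rich in mitochondria, was at 0 in all 5 NPRA-/- labelled libraries and in 3 NPRA+/+ labelled libraries, at 0.090 FPKM in 230 and at 5.89 FPKM in 255. The 4 listed markers of fat, of which Cfd too was at 0 in at least 1 library, summed to 18.3 to 24.9 FPKM in NPRA-/- labelled libraries and 15.9 to 36.1 FPKM in NPRA+/+ labelled libraries, the highest in 255. Atrial markers summed to 298 to 652 FPKM in NPRA-/- labelled libraries and 237 to 860 FPKM in NPRA+/+ labelled libraries, with Myl7 and Sln at 0 in at least 1 library; skeletal muscle markers summed to 411 to 492 FPKM in NPRA-/- labelled libraries and 421 to 800 FPKM in NPRA+/+ labelled libraries, and erythroid markers to 946 to 1438 FPKM in NPRA-/- labelled libraries and 768 to 1392 FPKM in NPRA+/+ labelled libraries. Whether these cell types bear on the mitochondrial values was not tested.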

How the data were processed

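Messenger RNA of the myocardium was sequenced in 10 libraries, 5 per genotype label. The submitters' processing notes name cutadapt, HISAT2, StringTie and the build mm10; versions, settings and the handling of reads with several matches are not stated there. The table of 22157 transcripts deposited by the authors names no unit; its values were taken as FPKM, made from the aligned reads by StringTie per the submitters' processing notes, and TPM would change each library by a single factor. At the best step searched, 29.5% to 34.7% of the low values of a library lay within 0.1 of whole reads. That step was the one with the highest share, and evenly spread values would also partly lie within 0.1 of whole numbers. Whole reads could not be read off these values, so depth is unknown.

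Of the transcripts, 22107 matched GENCODE vM21 (GRCm38) and were summed to 11777 genes. The groups were fitted in limma 3.58.1 (R 4.3.3) on log2(FPKM + 1), with empirical Bayes and trend, no covariate, a minimum group mean of 1 FPKM and Benjamini-Hochberg adjustment over 10764 genes; differences of low genes are understated on this scale. The fit was tested on simulated data whose genes varied independently and whose planted changes were larger than any difference of the 10 transcripts. How well it finds differences as small as these was not tested. Ratios were compared by exact permutation. P-values measure only the spread between these libraries, which may be technical. Genes outside the 10 were named by rule: the 3 with the smallest p per list, the most abundant marker per cell type and the 6 nearest by Pearson's r. Ucp1, Cfd, Myl7 and Sln, the pairs with mt-Atp8 and mt-Nd4l, and the search of 31-base words were added after values were seen. The transcripts and lists were chosen with earlier results of these data known. Alternatives changed the pseudocount (0.1 or 0.5), the filter (none, or 5 FPKM), the scaling (4 others) and the empirical Bayes step, added 1 to the values in ratios, and left out each library. Circular RNA was not analysed here. Other steps used Python 3.11.15 (numpy 2.4.6; pandas 2.3.3; scipy 1.17.1; matplotlib 3.10.9).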

Additional observations from a re-analysis of the deposited data

Results flagged for a closer look

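Of 44 sets of 5 libraries (13 mitochondrial genes, 8 ratios and the summed share, in each genotype), 5 held a library set apart from the other 4 by a gap past the critical value of Dixon's test, and chance gives about 1 in 20. In libraries with the label NPRA-/-, library 227 was lowest for mt-Nd2, at 9267 FPKM against 10545 to 10721 FPKM in the other 4, and for mt-Cytb, at 15725 FPKM against 17548 to 18271 FPKM. In libraries with the label NPRA+/+, library 242 was lowest for the ratio of mt-Nd6 to mt-Cytb, at 0.0121 against 0.0135 to 0.0139. Library 255 was highest for the ratio of mt-Nd2 to mt-Nd1, at 0.876 against 0.750 to 0.784. Library 230 was lowest for the ratio of mt-Co3 to mt-Atp6, at 0.562 against 0.627 to 0.641.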

How the results depend on the processing

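No mitochondrial transcript passed the adjusted threshold in 200 alternatives (lowest limma adjusted p 0.847), of which 182 kept the direction, 14 reversed it and 4 gave exactly 0. Quantile normalization gave log2 differences of 0 for mt-Nd1, mt-Nd2, mt-Co1 and mt-Cytb, -0.0038 for mt-Nd4, -0.011 for mt-Nd5, -0.048 for mt-Co2 and -0.031 for mt-Nd6, and only mt-Co3 (0.015) and mt-Atp6 (0.015) were above 0. It gives equal ranks equal values, so the 0 of mt-Co1 (rank 1 in every library) and mt-Cytb (rank 2) was fixed in advance. mt-Nd1 (ranks 3 to 4) and mt-Nd2 (ranks 5 to 6) had little room to differ. Rescaling to the same sum gave -0.0089 for mt-Co2 and -0.0058 for mt-Co3. A scaling by library moves all transcripts by nearly the same log2 amount, and mt-Nd1 moved from 0.052 to 0.039. The summed expression averaged 440561 FPKM in NPRA-/- labelled libraries and 436579 FPKM in NPRA+/+ labelled libraries. The cause of the reversals under quantile normalization or with 1 library left out was not tested. Median-of-ratios scaling raised the differences, to 0.087 for mt-Nd1, 0.10 for mt-Nd2, 0.075 for mt-Nd4, 0.067 for mt-Nd5, 0.072 for mt-Co1, 0.039 for mt-Co2, 0.042 for mt-Co3, 0.12 for mt-Atp6, 0.082 for mt-Cytb and -0.0028 for mt-Nd6, with adjusted p-values of 0.930 or higher. Leaving out 1 library gave -0.018 to 0.086 for mt-Nd1, -0.015 to 0.038 for mt-Co2 and -0.027 to 0.030 for mt-Co3. It gave 0.018 (without 255) to 0.065 (without 227) for mt-Co1, 0.032 (without 231) to 0.086 (without 227) for mt-Cytb, 0.016 (without 231) to 0.080 (without 227) for mt-Nd4, 0.017 (without 241) to 0.066 (without 227) for mt-Nd5, 0.062 (without 231) to 0.12 (without 227) for mt-Atp6, and -0.083 (without 241) to -0.0091 (without 217) for mt-Nd6. No ratio passed in 88 alternatives (lowest adjusted exact permutation p 0.127), where a lone ratio could again not have passed after adjustment. Leaving out 1 library gave log2 differences of -0.028 to 0.015 for mt-Nd5 over mt-Nd4, -0.040 to 0.037 for mt-Co1 over mt-Nd1 and -0.058 to 0.010 for mt-Co2 over mt-Co1. The difference in the share of the summed expression, 0.501 percentage points, was 0.236 points without library 241 and 0.876 points without library 227. Over all genes limma called 1, against 0 under median-of-ratios scaling, quantile normalization or no trend, and 0 to 2 with 1 library left out, 2 without 217 and 0 without 231, 240, 241, 228 or 230. Median-of-ratios scaling moved the median log2 difference of all genes to 0.0016, against -0.029. No paired analysis was possible because the labels give each library a number of its own. Depth limits are unknown, since the values hold no counts.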
